A study of Homo sapiens with 32 samples.

Results

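The genes described here encode the co-chaperones and regulators of BiP: DNAJB9, DNAJB11, DNAJC3, DNAJC10, HYOU1, SIL1, SDF2L1, FICD and MANF. They were chosen by name, and each gene was read from its transcript with the highest sum of reads, which gave 9 genes of the 14341 with at least 1 read. All 9 had enough reads for the tests of total and labelled reads described below. BiP, the product of HSPA5, is the Hsp70 chaperone of the endoplasmic reticulum (ER), the compartment in which secreted and membrane proteins fold. J-domain proteins bring unfolded clients to BiP and stimulate its ATPase, nucleotide exchange factors release ADP so that the client can leave, and further proteins modify BiP or hold it in a client-bound or idle state. When unfolded proteins build up in the ER, the unfolded protein response raises the transcription of BiP and of many of its partners through the transcription factors ATF6 and XBP1.

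All cells derived from HCT116, a human line established from a colorectal carcinoma, and carried an OsTIR1 gene switched on by doxycycline. OsTIR1 is a plant F-box protein that, with auxin bound, marks proteins bearing an auxin-inducible degron for the proteasome. The tagged line carried the mAID degron on IGF2BP3, an RNA-binding protein, at both endogenous alleles, and the parental line did not. Whether the tagged line was 1 clone is not given in the labels. Each line was grown under 4 conditions: tunicamycin with auxin, tunicamycin with vehicle, auxin alone, and vehicle alone. Tunicamycin, which blocks N-linked glycosylation and so stresses the ER, was given at 5 µg/mL for 5 h ("stressed"), auxin (IAA) at 500 µM for 9 h, and DMSO was the vehicle. All wells, controls included, also received doxycycline at 200 ng/mL for 24 h and 4-thiouridine (s4U), a uridine analogue built into new RNA, at 250 µM for 2 h. There were 4 libraries in each of the 8 groups, 1 well per library, so p-values measure the spread between wells. Cells were read in bulk, so fewer cells of a kind and less RNA per cell cannot be told apart.

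In SLAM-seq, s4U in RNA is alkylated and then read as C in place of T, so that reads with T-to-C conversions ("labelled reads") come from RNA made during the s4U pulse. Libraries were made from the 3′ ends of transcripts. Each library held between 0.987 M and 6.98 M reads assigned to named genes, and 8.88% to 13.5% of them were labelled. The smallest library, replicate 1 of stressed, auxin-treated parental cells, stood apart: it held 0.987 M reads against at least 2.55 M in any other, and its 10 most abundant genes took 9.97% of the reads against at most 5.81% elsewhere. It is shown with the others and enters the shared estimate of spread, and for stress and auxin the calls of the 9 genes, and the values in its own group, are also given without it. Every epithelial marker examined was detected (EPCAM, KRT8, KRT18, KRT19, CDH1 and CLDN7; summed 1983 to 2791 CPM). Of 5 fibroblast markers COL1A1 was read at 18.4 to 59.8 CPM and the other 4 were at 0, while leukocyte and endothelial markers summed to at most 2.15 and 1.57 CPM. The mRNA of IGF2BP3 does not report on its protein: tagged cells held 149.0 CPM with auxin and 155.6 CPM with vehicle unstressed, and 152.7 and 167.4 CPM stressed. No protein measurement was used here, so depletion of IGF2BP3 was not checked.

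Each gene was read over the 3′ region of a single transcript, listed here with its position in hg38. The J-domain proteins were DNAJB9 (NM_012328.2, chr7:108569874-108574850), DNAJB11 (NM_016306.4, chr3:186570720-186585793), DNAJC3 (NM_006260.4, chr13:95677139-95794988) and DNAJC10 (NM_001271581.1, chr2:182716257-182794464). The exchange factors were HYOU1 (NM_001130991.1, chr11:119044188-119057205) and SIL1 (NM_001037633.1, chr5:138946724-139198368). The remaining genes were SDF2L1 (NM_022044.2, chr22:21642302-21644299), FICD (NM_007076.2, chr12:108515277-108521210) and MANF (NM_006010.4, chr3:51385291-51389397). The counted regions ran from 124 bases for SDF2L1 and 128 for FICD to 3959 for DNAJC3. SIL1 and FICD had the fewest reads over all libraries, 5500 and 2616. HYOU1-AS1, a long noncoding RNA at chr11:119044188-119045493, overlaps the 3′ end of HYOU1. Whether counting used the strand is not stated, so reads from HYOU1 and HYOU1-AS1 cannot be told apart.

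Promoter sequence is shown first for the genes whose upstream region holds a letter match to an unfolded-protein-response element. The reason is that most of the 9 genes rose with stress in the data that follow. Sequences are from RefSeq, GRCh38.p14, and cover 250 bases before to 50 after each annotated gene start. All 9 genes had an entry, among 35093 promoters. Letters were searched on both strands. The ER stress response element (ERSE, CCAAT and CCACG with 9 bases between them), known to bind ATF6 together with the factor NF-Y, was present in 0.0769% of all promoters and among these genes in FICD. ERSE-II (ATTGG and CCACG with 1 base between them) was present in 0.0541% of promoters and, on the opposite strand, in HYOU1 at 2 places and in SDF2L1. The UPRE (TGACGTGG), bound by XBP1 and ATF6, was present in 0.729% of promoters and in DNAJC10 and HYOU1. Its core ACGTGG, which lies inside the UPRE and can overlap ERSE-II, was present in 9.73% of promoters and in DNAJB9 at 2 places, DNAJC3, DNAJC10 and HYOU1. TTNCATCA, a motif of C/EBP-ATF sites, was present in 3.62% of promoters and in none of the 9 genes. DNAJB11, MANF and SIL1 held none of these letters in the window. Total reads of DNAJB11 and MANF nevertheless rose with stress in all 4 comparisons given below, and those of SIL1 in 1. The promoters of DNAJB11 and MANF are not shown. A match describes the letters only, and no match says nothing about the factor. In the sequences below, read 5′ to 3′ on the gene's strand, capitals mark the matches, and the promoters of HSPA5 and of SIL1, whose total reads passed no test for stress in vehicle-treated cells, stand beside them. FICD (chr12:108515087-108515167, plus strand) holds the ERSE at positions -154 to -136 from the gene start. HYOU1 (chr11:119057255-119057405, minus strand) holds ERSE-II at -185 to -175 and -79 to -69 and the UPRE at -188 to -181, which overlaps the first ERSE-II. SDF2L1 (chr22:21642087-21642152, plus strand) holds ERSE-II at -188 to -178. DNAJC10 (chr2:182716107-182716162, plus strand) holds the UPRE at -125 to -118. DNAJB9 (chr7:108569779-108569854, plus strand) holds the core at -74 to -69 and -48 to -43, and DNAJC3 (chr13:95676934-95676984, plus strand) at -180 to -175. SIL1 (chr5:139198369-139198468, minus strand) is shown without a match, and HSPA5 (chr9:125241373-125241433, minus strand) holds an ERSE at -66 to -48.
FICD: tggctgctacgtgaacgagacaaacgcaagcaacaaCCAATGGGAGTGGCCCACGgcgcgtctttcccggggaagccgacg
HYOU1: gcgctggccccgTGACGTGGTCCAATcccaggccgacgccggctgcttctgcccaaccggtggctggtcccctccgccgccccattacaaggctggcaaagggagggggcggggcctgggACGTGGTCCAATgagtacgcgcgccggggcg
SDF2L1: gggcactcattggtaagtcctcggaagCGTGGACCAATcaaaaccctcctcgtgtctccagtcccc
DNAJC10: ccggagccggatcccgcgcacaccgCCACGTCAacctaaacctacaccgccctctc
DNAJB9: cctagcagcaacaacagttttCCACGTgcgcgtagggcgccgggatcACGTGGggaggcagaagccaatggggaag
DNAJC3: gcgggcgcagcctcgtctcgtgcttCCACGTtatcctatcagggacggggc
SIL1: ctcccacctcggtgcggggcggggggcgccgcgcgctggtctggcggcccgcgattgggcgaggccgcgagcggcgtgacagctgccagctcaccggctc
HSPA5: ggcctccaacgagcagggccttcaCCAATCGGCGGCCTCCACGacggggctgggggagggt

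Tunicamycin raised total reads of 8 of the 9 genes in vehicle-treated parental cells, against 7.65% of all 11186 genes tested that were higher. SIL1 was the exception. The changes ran from 1.62-fold for DNAJC10 to 21.6-fold for DNAJB9, and the median log2 fold change of the 9 genes was 1.96 against -0.01 for all genes tested. For each of the 8 genes, all 4 stressed libraries lay above all 4 unstressed ones. How many of all genes separated in this way was not counted. Levels are given as CPM, reads per 1 M reads in named genes on TMM-scaled library sizes. Fold changes are log2 values with their standard errors from edgeR's quasi-likelihood test, and adjusted p-values are Benjamini-Hochberg values over all genes tested, with a threshold of 0.05.

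**Figure D1:**
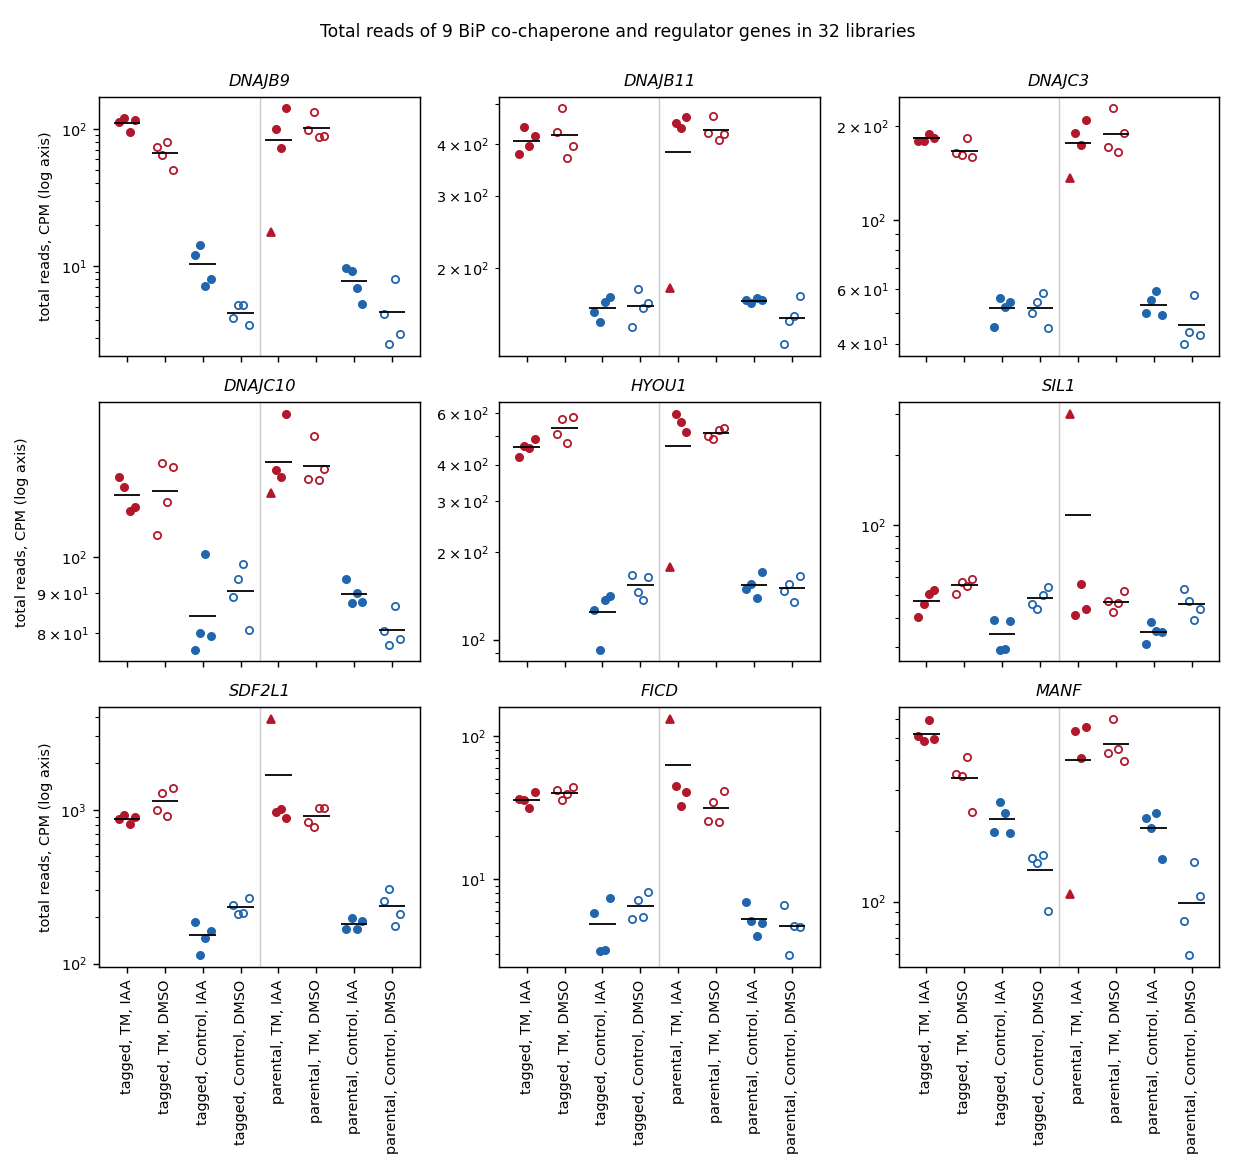
Total reads of the 9 genes in CPM on a log axis (vertical) for each of the 32 libraries, grouped by line, stress and auxin (horizontal). Red points are stressed and blue points unstressed libraries, filled points auxin and open points vehicle, triangles the smallest library, and bars group means. In 8 panels the stressed vehicle-treated libraries lie above the unstressed ones of the same line, and in the SIL1 panel they overlap.

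DNAJB9 (ERdj4), which binds misfolded clients for degradation and in mouse and human cells has been reported to hold the stress sensor IRE1 in its repressed form, changed most. Its 4 stressed libraries held 97.5, 132, 87.7 and 88.9 CPM in vehicle-treated parental cells, against 4.45, 2.68, 8.04 and 3.16 CPM in unstressed cells. The 2 sets did not overlap, and the unstressed level rested on 14, 9, 34 and 13 reads, so its fold change, 4.43 ± 0.38 on the log2 scale (adjusted p 4.29e-10, edgeR), has the widest error of the 9. The other stress comparisons gave 3.49 ± 0.35 in auxin-treated parental cells (3.75 ± 0.27 without the smallest library), 3.88 ± 0.41 in vehicle-treated tagged cells and 3.41 ± 0.33 in auxin-treated tagged cells.

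DNAJB11 (ERdj3), a soluble J-domain protein that binds a broad range of unfolded chains, stood at 425, 469, 409.6 and 424 CPM in stressed and 131, 149, 154 and 171 CPM in unstressed vehicle-treated parental cells. Each stressed library was thus more than 2 times any unstressed one (1.51 ± 0.16, adjusted p 4.39e-08, edgeR). DNAJC3 (P58IPK), an ER co-chaperone first described as an inhibitor of eIF2α kinases, held 171, 228, 165 and 191 CPM with stress against 39.8, 43.7, 57.2 and 42.6 CPM without (2.04 ± 0.13, adjusted p 3.62e-13). DNAJC3 rose in the other comparisons too, by 1.74 ± 0.13 (1.84 ± 0.11 without the smallest library) in auxin-treated parental, 1.69 ± 0.13 in vehicle-treated tagged and 1.81 ± 0.13 in auxin-treated tagged cells. DNAJC10 (ERdj5), a J-domain protein with thioredoxin domains that reduces disulfides of clients bound for degradation, rose least. It stood at 126, 143, 125 and 129 CPM in stressed and 80.5, 77.3, 86.6 and 78.8 CPM in unstressed cells. DNAJC10 varied least within groups of the 9 genes (SD 0.116 on the log2 scale over all groups), and the change of 0.69 ± 0.10 had an adjusted p of 6.99e-06 (edgeR). Over the 4 comparisons DNAJC10 rose 1.34-fold to 1.62-fold and passed the test in each.

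Of the exchange factors, HYOU1 rose in all 4 stress comparisons, and SIL1 passed in 1 of them with all libraries. HYOU1 (GRP170), a large Hsp110-type chaperone that exchanges nucleotide on BiP and also binds clients itself, held 502, 488, 528 and 535 CPM in stressed and 147, 155, 134 and 165 CPM in unstressed vehicle-treated parental cells. The lowest stressed library thus lay far above the highest unstressed one, a change of 1.77 ± 0.19 (adjusted p 8.98e-08, edgeR), and the 4 comparisons ranged from 1.61 to 1.88 with all libraries and from 1.77 to 1.88 without the smallest. SIL1 (BAP), an exchange factor whose loss causes Marinesco-Sjögren syndrome, held 47.0, 42.2, 46.4 and 52.0 CPM with stress and 53.1, 47.3, 39.0 and 43.5 CPM without. Its groups overlapped, and its change of 0.04 ± 0.35 (adjusted p 0.956, edgeR) had a 95% interval of -0.69 to 0.77. Without the smallest library, which is in neither group but enters the shared estimate of spread, it was 0.05 ± 0.12 (adjusted p 0.808) with an interval of -0.20 to 0.29, which leaves room for a small change either way. In vehicle-treated tagged cells SIL1 stood at 50.7, 57.1, 54.6 and 58.5 CPM with stress and 45.9, 43.5, 50.2 and 54.4 CPM without (0.19 ± 0.36, adjusted p 0.967; 0.19 ± 0.13, 0.46 without the smallest library), again with overlap. With auxin the unstressed SIL1 libraries held 30.8, 38.3, 35.0 and 34.9 CPM in parental and 39.2, 29.2, 29.4 and 38.8 CPM in tagged cells, and every stressed library lay above them. The auxin-treated parental comparison passed at 1.50 ± 0.36 (adjusted p 0.00867), but 1 of its stressed libraries, the smallest of all, held 301.3 CPM of SIL1 against 41.07 to 56.02 CPM in the other 3. Without that library the change was 0.44 ± 0.14 (adjusted p 0.0331, edgeR) in parental and 0.48 ± 0.13 (0.0113) in tagged auxin-treated cells. The tagged value with all libraries was 0.48 ± 0.37 (0.689). Whether stress acted differently with and without auxin on SIL1 was tested in tagged cells, where the difference was 0.29 ± 0.51 (adjusted p 1; 0.29 ± 0.18, 1 without the smallest library).

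SDF2L1, FICD and MANF act on BiP or its cycle from outside the J-domain and exchange classes. SDF2L1, a MIR-domain protein that forms complexes with ER J-domain proteins, stood at 836, 769.7, 1025 and 1032 CPM in stressed and 253, 303, 176 and 209 CPM in unstressed vehicle-treated parental cells (1.96 ± 0.30, adjusted p 3.91e-05, edgeR). FICD, the enzyme that attaches AMP to BiP and takes it off again, was read at 25.5, 34.3, 25.0 and 41.6 CPM with stress and 6.68, 2.97, 4.73 and 4.62 CPM without (2.74 ± 0.34, adjusted p 4.64e-07). FICD rested on few reads when unstressed, 70 over the 4 libraries, and both sets of libraries stayed apart. MANF, a secreted and ER-resident factor that binds BiP and slows its nucleotide exchange, held 429.5, 601, 448 and 396 CPM in stressed and 82.7, 59.2, 148 and 106 CPM in unstressed cells. The unstressed MANF libraries differed among themselves by more than 2 times, and all lay below the stressed ones (2.24 ± 0.30, adjusted p 6.22e-06, edgeR).

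The values of these 3 genes moved with the smallest library. In auxin-treated parental cells, SDF2L1 stood at 3890, 967, 1017 and 888 CPM with stress and 168, 196, 167 and 188 CPM without, and the first stressed value, the smallest library, was far above the other 3. With it the change was 3.23 ± 0.30, and without it 2.42 ± 0.16. FICD, at 131, 44.7, 32.5 and 40.5 CPM with stress, moved likewise between 3.40 ± 0.34 with and 2.87 ± 0.24 without that library. MANF went the other way, with 108, 534, 412 and 556 CPM in stressed and 226, 206, 239 and 151 CPM in unstressed cells. The smallest library alone overlapped the unstressed range of MANF, and the change was 0.99 ± 0.30 (adjusted p 0.0309) with it and 1.28 ± 0.23 (0.000417, edgeR) without it. The MANF call was lost without replicate 1, 2 or 4 of the unstressed group or replicate 2 or 4 of the stressed group (adjusted p 0.0528 to 0.089). In the same library DNAJB9 (17.8 CPM), DNAJB11 (179.2 CPM), DNAJC3 (136 CPM), DNAJC10 (120.8 CPM) and HYOU1 (178 CPM) were also below each of the other 3 libraries of the group, while SIL1, SDF2L1 and FICD were above. What set this library apart was not tested.

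By count, 9 of 9 genes rose with stress in auxin-treated parental cells, where 7.26% of all genes were higher. In tagged cells 8 rose with vehicle and 8 with auxin, against 2.92% and 3.02% of all genes, SIL1 missing in both. Without the smallest library the counts were 8, 9, 8 and 9 in vehicle-treated parental, auxin-treated parental, vehicle-treated tagged and auxin-treated tagged cells, and the shares of all genes called higher were 15.8%, 5.57%, 5.08% and 5.05%. A fit on the compared libraries alone, the smallest among them, left 4 of 9 in auxin-treated parental cells, where 1.01% of all genes were higher. Median log2 fold changes of the 9 genes were 1.61, 1.69 and 1.81 in auxin-treated parental, vehicle-treated tagged and auxin-treated tagged cells, against -0.00, -0.01 and -0.01 for all genes. The median in auxin-treated parental cells was 1.84 without the smallest library, and 1.97, 1.70 and 1.81 in vehicle-treated parental, vehicle-treated tagged and auxin-treated tagged cells. In that comparison DNAJB11 changed by 1.21 ± 0.16 with and 1.43 ± 0.09 without the library, DNAJC10 by 0.56 ± 0.10 and 0.60 ± 0.10, and HYOU1 by 1.61 ± 0.19 and 1.86 ± 0.10.

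**Figure D2:**
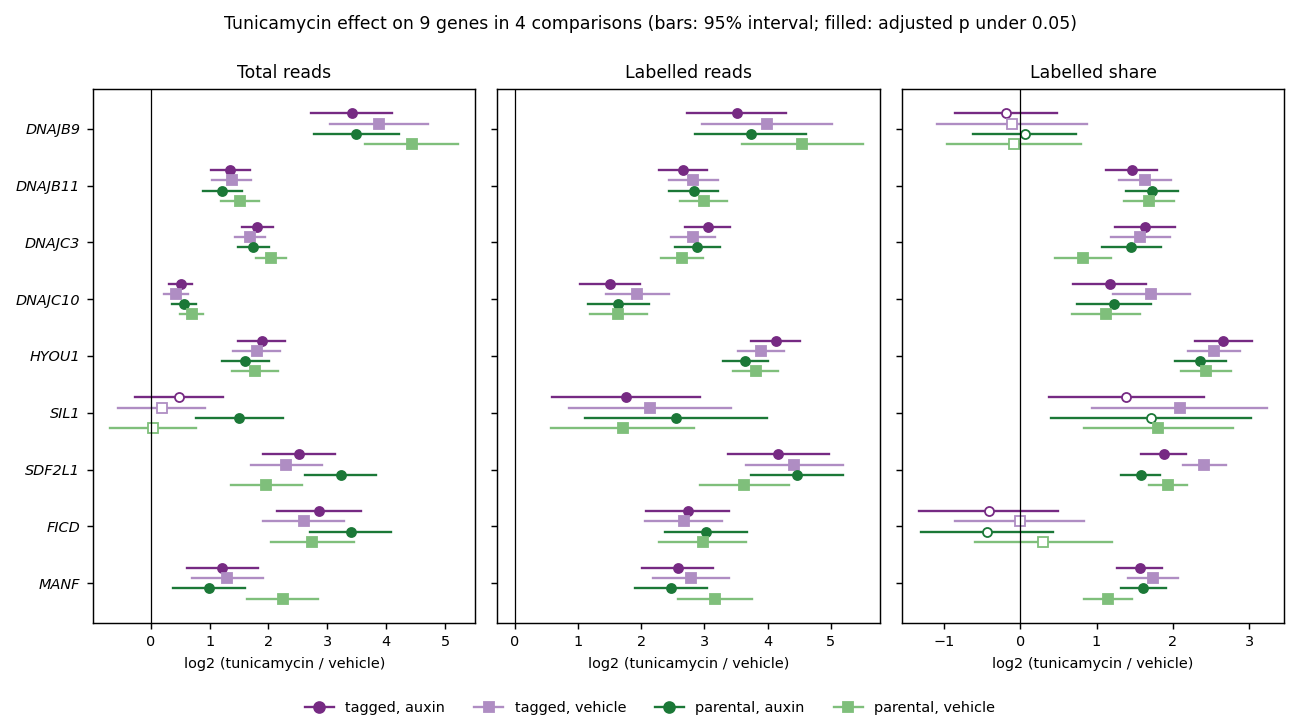
Log2 change of tunicamycin over vehicle with its 95% interval (horizontal) for each of the 9 genes (vertical), in total reads, labelled reads and labelled share, for 4 comparisons: each line with and without auxin. Filled points had an edgeR adjusted p under 0.05. Values for the labelled share are changes in the ratio of labelled to other reads, relative to the typical gene. In the labelled share, DNAJB9 and FICD lie around 0 in all 4 comparisons, while HYOU1 lies between 2.36 and 2.66 (2.25 and 2.67 without the smallest library, which is included in the plot).

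Labelled reads, which count RNA made within the 2 h pulse, changed more than total reads for most of the genes. CPM of labelled reads is per 1 M labelled reads of a library. SIL1 is left out of the counts and medians that follow. Its unstressed libraries held 0 to 8 labelled reads each, fewer than the filter on low counts asks for, so SIL1 was tested only because its stressed libraries held more. The other 8 genes were all called higher in vehicle-treated parental cells, against 10.1% of 8980 genes tested. The same count was reached in auxin-treated parental, vehicle-treated tagged and auxin-treated tagged cells, where 7.91%, 6.88% and 6.94% of all genes were higher. Median log2 fold changes of the 8 genes were 3.08, 2.95, 2.82 and 2.89 in the 4 comparisons, against -0.03, -0.02, -0.02 and -0.04 for all genes. All 8 were called in each comparison without the smallest library too, against 11.9%, 8.4%, 7.94% and 8.11% of all genes, with medians of 3.08, 2.98, 2.82 and 2.89. In auxin-treated parental cells, which hold that library, labelled SDF2L1 changed by 4.47 ± 0.35 with and 3.85 ± 0.22 without it, MANF by 2.47 ± 0.28 and 2.67 ± 0.18, and the other 6 genes by 1.63 to 3.73 and 1.78 to 3.94. When labelled reads were scaled by total reads instead, the medians over all genes shifted by -0.28, -0.31, -0.24 and -0.28, and the split in vehicle-treated parental cells to 579 genes higher and 1786 lower, where scaling by labelled reads gave 909 and 632.

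HYOU1 had 1127, 1151, 1279 and 1181 labelled CPM in stressed and 107, 74.2, 78.0 and 77.8 in unstressed vehicle-treated parental cells. That is 14.1-fold (3.82 ± 0.18, adjusted p 1.33e-29, edgeR), where its total reads changed 3.41-fold. SDF2L1 had 1444, 1277, 1740 and 1686 labelled CPM with stress and 127, 198, 79.8 and 98.7 without (3.63 ± 0.34, adjusted p 1.21e-08). DNAJB11 had 550.2, 597, 537 and 576 against 59.2, 53.9, 69.4 and 98.7 (2.99 ± 0.19), roughly 2 times its fold change in total reads on the log scale. For DNAJB9 the 2 readouts were close, 4.55 ± 0.46 in labelled and 4.43 ± 0.38 in total reads, and likewise for FICD, 2.97 ± 0.35 and 2.74 ± 0.34. DNAJC3 changed by 2.65 ± 0.17, MANF by 3.17 ± 0.29 and DNAJC10 by 1.64 ± 0.23. SIL1 rose by 1.71 ± 0.57 (adjusted p 0.019, edgeR), with overlapping groups, a call lost without replicate 3 or 4 of either group (adjusted p 0.056 to 0.0909).

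The labelled share, labelled reads as a percentage of a gene's reads, compares new with older RNA of the same gene. It depends on how many T positions a read covers, which differed between the genes (a median of 11.6 per read for SIL1 and 34.6 for DNAJB9). Shares are therefore compared between groups and not read as rates. T positions per read also differed between groups, so that comparison does not remove the dependence. Library-wide they were 22.5 ± 0.597 with stress and 21.3 ± 1.02 without in vehicle-treated parental cells (SD, n = 4 each). There DNAJC10 had 24.91, 25.05, 23.81 and 23.53 with stress and 21.03, 20.27, 23.31 and 23.78 without. Library-wide conversions were lower with stress, 0.806% ± 0.0424 of covered T positions against 1.13% ± 0.0698 in vehicle-treated parental cells (SD, n = 4 each). The test compares labelled with other reads of a gene. Its log2 values are changes in the ratio of labelled to other reads, not in the percentages printed beside them. The test asks for change relative to the typical gene. Without such centring the median of all genes was -0.40 in these cells, and 210 genes were higher and 1778 lower, where the centred test gave 432 and 302.

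Leaving out SIL1 again, 6 of 8 genes rose in labelled share in vehicle-treated parental cells, against 4.81% of all genes. HYOU1 had a share of 24.9, 27.6, 25.3 and 25.3% with stress and 10.2, 6.33, 7.92 and 6.03% without (2.43 ± 0.17, adjusted p 8.12e-25, edgeR). SDF2L1 had 19.2, 19.5, 17.7 and 18.8% and 7.04, 8.64, 6.19 and 6.05% (1.94 ± 0.12, adjusted p 6.91e-27). DNAJB11 had 14.4, 14.9, 13.7 and 15.6% and 6.33, 4.78, 6.16 and 7.40% (1.69 ± 0.16, adjusted p 4.30e-16). In these 3 genes and in MANF, at 18.5 ± 1.28% with stress and 12.0 ± 3.92% without (SD, n = 4 each), all stressed shares lay above all unstressed ones. DNAJC10 (16.5 ± 2.25% and 10.4 ± 2.48%), DNAJC3 (31.4 ± 1.51% and 25.4 ± 6.97%) and SIL1 (7.16 ± 2.91% and 2.73 ± 1.71%) also passed, with overlap between stressed and unstressed libraries, and SIL1 again was tested only because of its stressed libraries.

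The calls for these last 3 genes depended on how labelling was measured. On conversions per covered T position, 4 of the 9 genes passed in vehicle-treated parental cells (limma), against 2.42% of all genes: HYOU1, SDF2L1, DNAJB11 and MANF. HYOU1 converted 1.46% of covered T positions with stress and 0.492% without, SDF2L1 1.25% and 0.534%, and DNAJB11 0.846% and 0.394%. For DNAJC3 the mean conversion was lower with stress, 1.96% against 2.19%, and library-wide conversions were lower too, 0.806% against 1.13%. None of these percentages is centred on the typical gene, unlike the values tested. The unstressed DNAJC3 mean includes 3.61% in replicate 2, against 1.45% to 1.95% in the other libraries of the group.

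DNAJB9 and FICD stood apart in labelled share. DNAJB9 had 71.5, 69.4, 65.1 and 69.2% labelled reads in stressed and 64.3, 77.8, 79.4 and 76.9% in unstressed vehicle-treated parental cells (-0.08 ± 0.44, adjusted p 0.896, edgeR; 95% interval -0.96 to 0.79). FICD had 31.5, 42.2, 43.7 and 43.5% with stress and 47.6, 40.0, 50.0 and 26.3% without (0.30 ± 0.45, adjusted p 0.788; 95% interval -0.60 to 1.20). Neither passed in any of the 4 comparisons, where DNAJB9 ranged from -0.19 to 0.06 and FICD from -0.43 to 0.30 (-0.19 to 0.11 and -0.41 to 0.31 without the smallest library). Their unstressed shares rest on few reads, 14, 9, 34 and 13 for DNAJB9 and 21, 10, 20 and 19 for FICD, and the intervals are correspondingly wide. Both shares were high in both states. Among 8980 genes, 99.7% had a lower share than DNAJB9 with stress and 99.2% without, and 93.0% and 88.1% had a lower share than FICD, where the median gene had 15.4% with stress and 18.9% without.

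The other genes changed rank among all genes. HYOU1 lay above 78.4% of genes in labelled share with stress and above 11.0% without, and SDF2L1 above 60.9% and 9.22%. DNAJB11 lay above 47.2% and 6.88%, MANF above 60.2% and 26.9%, and DNAJC10 above 53.6% and 20.7%. DNAJC3 stood at 85.9% and 66.7%. SIL1 had the lowest share of the 9 in both states, above 15.8% of genes with stress and above 0.445% without. Ranks between genes also depend on the T positions per read, and they are a description with no test.

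**Figure D3:**
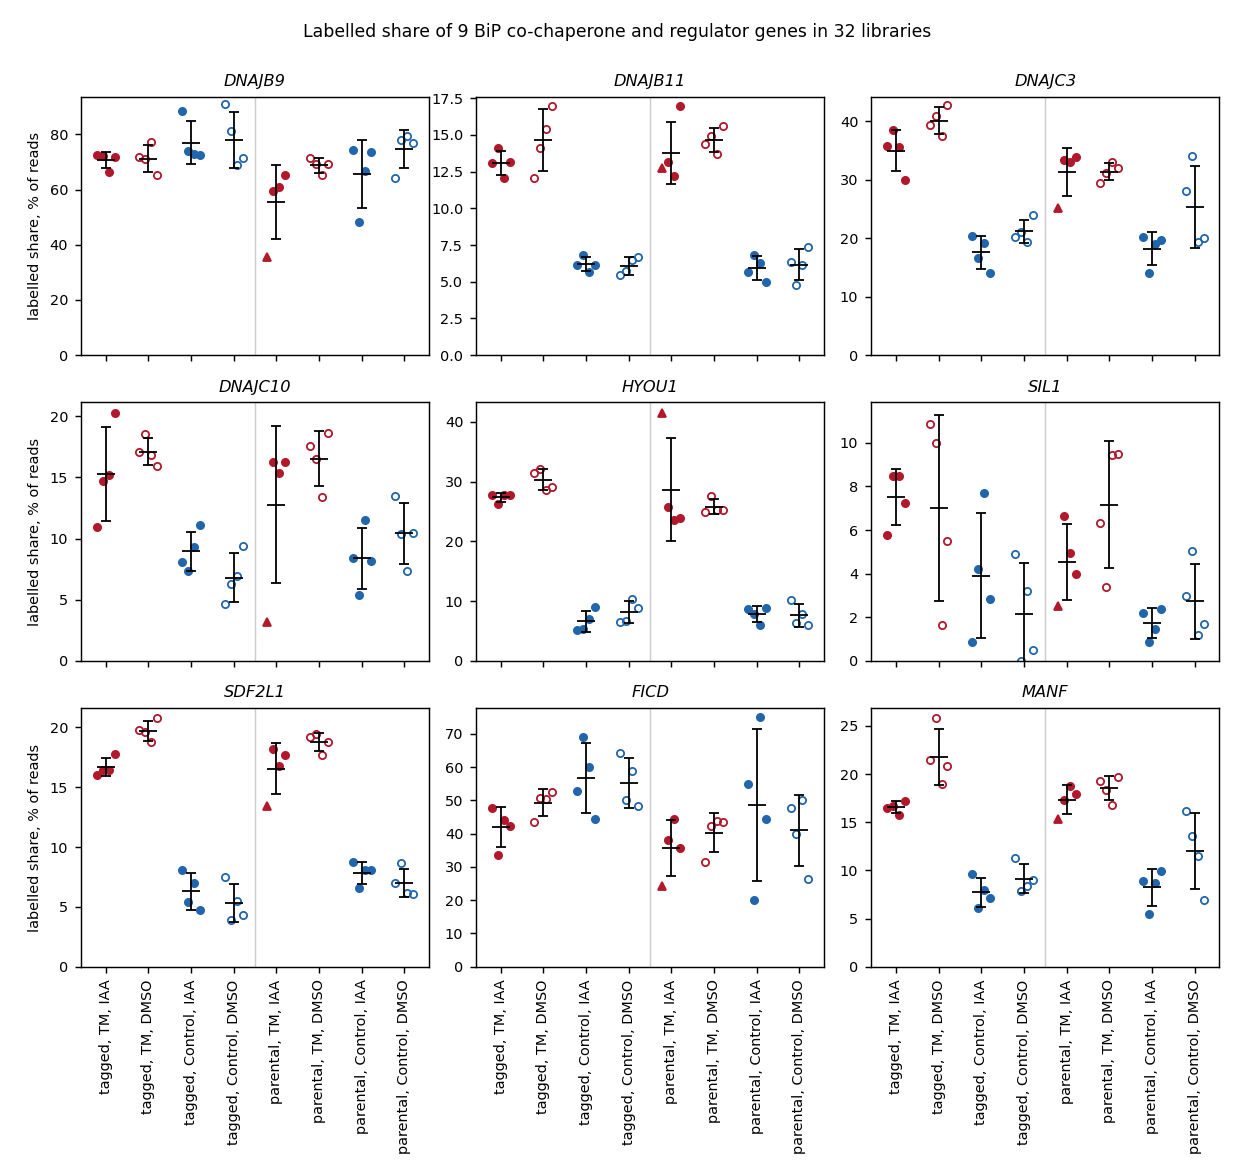
Labelled reads as a percentage of each gene's reads (vertical, each panel with its own scale) for the 32 libraries by group (horizontal), with mean and SD, the SD bars of SIL1 cut at 0. Colours and symbols are as in the plot of total reads. Stressed shares of HYOU1, SDF2L1 and DNAJB11 lie above the unstressed ones in every group, while those of DNAJB9 and FICD overlap.

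In the other groups the labelled share was called higher for the same number of genes, 6 of 8, in auxin-treated parental cells (5.39% of all genes higher), vehicle-treated tagged cells (5.02%) and auxin-treated tagged cells (5.06%). Without the smallest library the count was 6 of 8 in all 4 comparisons, against 5.07%, 5.4%, 5.13% and 5.26% of all genes, and the share of SDF2L1 in auxin-treated parental cells changed by 1.65 ± 0.13 (1.58 ± 0.13 with the library). SIL1, which is outside these counts, passed in vehicle-treated tagged cells and had 1.71 ± 0.66 (adjusted p 0.0667, edgeR) in auxin-treated parental and 1.39 ± 0.51 (0.0677) in auxin-treated tagged cells. These were 1.92 ± 0.68 (0.0445) and 1.39 ± 0.51 (0.0635) without the smallest library. In tagged cells DNAJC3 had 39.4, 40.9, 37.5 and 42.8% with stress and 20.3, 21.1, 19.4 and 24.0% without, with no overlap (1.57 ± 0.20, adjusted p 1.04e-10). MANF had 21.4, 25.8, 19.0 and 20.8% and 11.3, 7.87, 8.40 and 8.96% (1.74 ± 0.17, adjusted p 2.58e-16), also without overlap.

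Auxin was compared with vehicle to ask what the loss of tagged IGF2BP3 does to these genes, with parental cells showing what auxin does without the tag. In unstressed tagged cells none of the 9 genes passed in edgeR with all libraries, where 0.679% of all genes did in either direction. An unadjusted p under 0.05 was reached by 2 of the 9, and by 2232 of all 11186 genes. DESeq2 called DNAJB9, where it called 5.02% of all genes. Without the smallest library, which belongs to none of the groups compared but enters the shared estimate of spread, 5 passed, against 15.9% of all genes. DNAJB9 and MANF were higher, and SDF2L1, SIL1 and HYOU1 lower. DNAJB9 stood at 12.0, 14.2, 7.12 and 7.98 CPM with auxin and 4.14, 5.23, 5.18 and 3.68 CPM with vehicle, with no overlap, from 35, 58, 22 and 29 and 11, 16, 16 and 14 reads (1.19 ± 0.44; adjusted p 0.128 with and 0.021 without that library, edgeR). MANF had 197, 265, 239 and 195 CPM with auxin and 153, 145, 158 and 90.9 CPM with vehicle (0.72 ± 0.30; 0.185 and 0.034). The libraries of both genes did not overlap. For stress, auxin and line alike, it was not counted how many of all genes separated in this way.

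SDF2L1 fell to 187, 114, 148 and 164 CPM with auxin, against 241, 209, 213 and 265 CPM with vehicle, when tested without the smallest library (-0.60 ± 0.16, adjusted p 0.0137; 0.262 with it, edgeR). SIL1 had 39.2, 29.2, 29.4 and 38.8 CPM with auxin and 45.9, 43.5, 50.2 and 54.4 CPM with vehicle (-0.51 ± 0.13, 0.011; 0.44 with it). Neither pair of groups overlapped. HYOU1 had 126, 92.4, 137 and 141 CPM with auxin and 167, 146, 137 and 165 CPM with vehicle, and these overlapped (-0.31 ± 0.10, 0.034; 0.379 with it). For DNAJB11, DNAJC3, DNAJC10 and FICD the log2 changes were -0.02, 0.01, -0.10 and -0.43, none past the test with or without the library.

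Unstressed parental cells, which carry no degron, moved in the same direction for MANF. MANF stood at 226, 206, 239 and 151 CPM with auxin and 82.7, 59.2, 148 and 106 CPM with vehicle, without overlap, and was the 1 gene of the 9 to pass (1.05 ± 0.30, adjusted p 0.0341, edgeR; 7.2% of all genes passed). Without the smallest library the adjusted p was 0.00246, and the call was lost without replicate 1, 2 or 4 of the vehicle group or replicate 1, 2 or 3 of the auxin group (adjusted p 0.0579 to 0.157). SIL1 passed too when the smallest library was left out, at 30.8, 38.3, 35.0 and 34.9 CPM with auxin and 53.1, 47.3, 39.0 and 43.5 CPM with vehicle (-0.39 ± 0.13, 0.023; 0.519 with it), where 24.9% of all genes passed. DNAJB9 had 9.67, 9.16, 6.85 and 5.26 CPM with auxin and 4.45, 2.68, 8.04 and 3.16 CPM with vehicle, which overlapped (0.72 ± 0.44, 0.299). The auxin effect was then compared directly between the lines. In unstressed cells it differed for none of the 9 genes, and 0.0179% of all genes passed, or 0.586% and again none of the 9 without the smallest library. No gene of the 9 had an unadjusted p under 0.05, against 667 of all 11186 genes, and DESeq2 called none of the 9. The tagged minus parental difference was 0.47 ± 0.62 for DNAJB9 (95% interval -0.80 to 1.74), -0.34 ± 0.42 for MANF (-1.20 to 0.53) and -0.21 ± 0.42 for SDF2L1 (-1.08 to 0.65). Each interval includes 0.

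With stress, auxin gave no calls among the 9 genes in tagged cells in edgeR (0.0179% of all genes) or in DESeq2. An unadjusted p under 0.05 was reached in edgeR by 2 of the 9 and by 1529 of all 11186 genes. DNAJB9 had 113, 119, 95.3 and 117 CPM with auxin and 74.1, 64.4, 80.7 and 49.8 CPM with vehicle, with no overlap (0.73 ± 0.29, adjusted p 0.302, edgeR), and passed without the smallest library (0.0426, where 2.51% of all genes passed). MANF had 509.9, 482, 595 and 493 CPM with auxin and 350.5, 344, 415 and 241 CPM with vehicle, also without overlap (0.62 ± 0.29, 0.349; 0.0948 without the library). In stressed parental cells none passed in edgeR (0.0179% of all genes) or in DESeq2. In these cells 3 of the 9 had an unadjusted p under 0.05 in edgeR, against 1775 of all 11186 genes. There, SIL1 (1.07), SDF2L1 (0.88) and FICD (0.82) shared an adjusted p of 0.194, and without the smallest library, where 0.0266% of all genes passed, their values were 0.00, 0.07 and 0.30. Leaving out replicate 4 of the auxin group, with the smallest library kept, brought all 3 past the threshold, where 7.36% of all genes passed. Leaving out replicate 2 did so for SIL1 (1.76% of all genes) and leaving out replicate 3 for FICD (1.5%). The tagged minus parental difference in stressed cells was 0.94 ± 0.40 for DNAJB9 (adjusted p 0.192; 0.67 and 0.276 without the library), 0.82 ± 0.41 for MANF (0.242; 0.52 and 0.436) and -1.26 ± 0.42 for SDF2L1 (0.166; -0.47 and 0.318). With all libraries, 4 of the 9 genes had an unadjusted p under 0.05 for this difference in edgeR, against 2430 of all 11186. EdgeR called the difference for none of the 9 and for 0% of all genes, with or without the smallest library. DESeq2 called it for none of the 9. Once replicate 4 was left out of stressed parental cells with auxin, it passed for DNAJB9 (1.29, adjusted p 0.0382), SDF2L1 (-1.47, 0.0328) and SIL1 (-1.56, 0.0423), in a fit that kept the smallest library and called 9.43% of all genes.

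**Figure D4:**
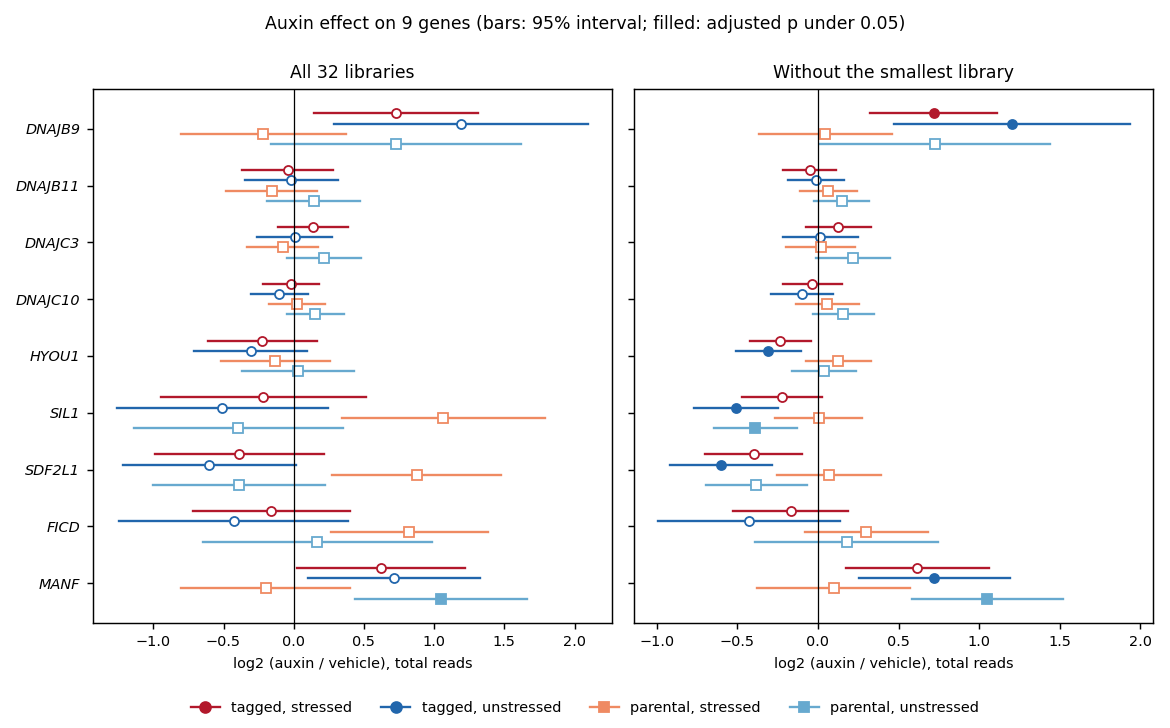
Log2 change of auxin over vehicle in total reads with its 95% interval (horizontal) for the 9 genes (vertical), in each line with and without stress, fitted on all 32 libraries and without the smallest library. Filled points had an edgeR adjusted p under 0.05. Intervals narrow without the smallest library in all 4 comparisons, and in stressed parental cells SIL1, SDF2L1 and FICD move from 1.07, 0.88 and 0.82 to 0.00, 0.07 and 0.30.

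Several of these genes also varied between libraries of the same group, along an axis shared by many genes. The axis, a first principal component of deviations from the group means with the smallest library set aside, held 42.7% of that variance over 5647 genes. Across 31 libraries, CPM within groups followed it with a Pearson r of -0.94 for MANF, 0.92 for SDF2L1, -0.79 for DNAJC3, -0.71 for DNAJB9, 0.65 for HYOU1 and 0.61 for SIL1. These values describe libraries that share the axis by construction and carry no test. DNAJB11 (-0.11) and FICD (0.09) hardly followed it. With the axis as a covariate, auxin changed MANF by 0.73 in unstressed and 0.64 in stressed tagged cells and by 1.11 in unstressed parental cells, and DNAJB9 by 1.16 and 0.75 in tagged cells and 0.81 in unstressed parental cells, each past the threshold. That fit called 22.4%, 14.3% and 28.9% of all genes for auxin in unstressed tagged, stressed tagged and unstressed parental cells. The tagged minus parental difference in stressed cells then passed for DNAJB9 (0.75, adjusted p 0.00725, edgeR), MANF (0.54, 0.00235) and SDF2L1 (-0.50, 0.00701), where 6.27% of all genes passed. The smallest library scored 8.04 on the axis and the other libraries -2.30 to 2.09, so the covariate and that library cannot be told apart. What lies behind the axis was not tested.

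Labelled reads and labelled shares gave no call for auxin among the 9 genes in any of the 4 comparisons in edgeR, nor did DESeq2 for labelled reads or limma for shares. For labelled reads 0.234%, 0%, 0.601% and 0.0111% of all genes passed, in unstressed tagged, stressed tagged, unstressed parental and stressed parental cells, and for shares 0%, 0%, 0.212% and 0%. Labelled reads without the smallest library gave 1.83%, 0.992%, 3.54% and 0.0327%, and neither readout called any of the 9 genes. With all libraries an unadjusted p under 0.05 was reached by 2, 1, 0 and 2 of the 9 genes for labelled reads and by 1, 1, 2 and 1 for shares. Of all 8980 genes, 1110, 953, 1243 and 604 reached it for labelled reads and 652, 618, 684 and 477 for shares. DNAJB9 had 83.9, 94.3, 40.3 and 48.9 labelled CPM with auxin and 26.9, 33.6, 26.4 and 21.5 with vehicle in unstressed tagged cells, without overlap (1.31 ± 0.55, adjusted p 0.292, edgeR). In stressed tagged cells it had 863, 818, 631 and 769 and 479, 385, 585 and 284 (0.83 ± 0.30, 0.303), again without overlap, and a fit on the compared libraries alone gave an adjusted p of 0.000313, where 2.29% of all genes passed. HYOU1 shares in stressed tagged cells were 27.8, 26.2, 27.8 and 27.7% with auxin and 31.4, 32.2, 28.5 and 29.1% with vehicle, all lower with auxin, while relative to the typical gene the difference was -0.04 ± 0.12 (0.982).

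Between the lines, without auxin, none of the 9 genes passed in total reads in edgeR or DESeq2, where 0.241% of all genes did unstressed and 0.411% stressed in edgeR. None of the 9 passed without the smallest library either, against 1.27% and 3.43% of all genes. An unadjusted p under 0.05 was reached by none of the 9 unstressed and by 1 stressed, against 790 and 1291 of all 11186 genes. The largest stressed difference was in DNAJB9, with 74.1, 64.4, 80.7 and 49.8 CPM in tagged and 97.5, 132, 87.7 and 88.9 CPM in parental cells, which did not overlap (-0.60 ± 0.28, adjusted p 0.424, edgeR). MANF had 350.5, 344, 415 and 241 CPM in stressed tagged and 429.5, 601, 448 and 396 CPM in stressed parental cells (-0.47 ± 0.29, 0.538). The stress effect itself, tagged minus parental, differed most for MANF, by -0.93 ± 0.42 (95% interval -1.79 to -0.07, adjusted p 0.65), DNAJB9 (-0.55 ± 0.56, 0.783) and DNAJC3 (-0.35 ± 0.18, 0.65). The stress effect with auxin minus that with vehicle in tagged cells was -0.47 ± 0.53 for DNAJB9 and between -0.09 and 0.29 for the others. Neither of these differences passed for any gene tested in edgeR or DESeq2, although 823 genes had an unadjusted p under 0.05 in edgeR for the first and 152 for the second.

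Over the 8 group means, stressed and unstressed, the 9 genes rose together with stress, SIL1 apart. Genes already called higher with stress correlate over such means, so the values below restate that change and carry no test. Within a stress state the genes did not all move together. With auxin and with vehicle in unstressed parental cells, MANF averaged 205.5 and 98.95 CPM, and SDF2L1 179.7 and 235.2 CPM. Pearson correlations of log2 CPM between pairs of genes were 0.756 to 0.994 without SIL1 and 0.289 to 0.803 with it, over 8 group means. With the smallest library left out of its group the ranges were 0.80 to 0.998 and 0.237 to 0.746. The genes with the most similar pattern by the same measure were CEBPB, ATF3 and SURF4 for DNAJB9, and STK40, DDIT4 and TRIB3 for DNAJB11. DNAJC3 was closest to DDIT4, TRIB3 and SLC38A2, and DNAJC10 to TMED5, STARD4 and GADD45B. HYOU1 was closest to CDK2AP2, PMAIP1 and DERL2, FICD to SESN2, CDH15 and CRELD1, and MANF to RIOK2, CLIC4 and CALCOCO2. For SIL1 they were ZNHIT2, ST6GALNAC4 and AP2B1. These correlations ran from 0.988 to 0.999, and 11 of the 24 names came up again among the closest 3 without the smallest library.

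Related genes were read for context. Of 8 other J-domain proteins of the ER, 2 rose with stress in vehicle-treated parental cells and none fell: DNAJC1 (1.31 ± 0.37, adjusted p 0.0168, edgeR) and SEC63, the J-domain protein of the translocon (0.81 ± 0.14, 0.000147). Of 27 J-domain proteins outside the ER 2 rose and 1 fell. DNAJB5 was higher (3.02 ± 0.47), at 7.36 CPM with stress from an unstressed mean near the floor, 0.935 CPM. DNAJC7 was higher (0.55 ± 0.16), and DNAJB1, a cytosolic heat shock co-chaperone, was lower (-0.57 ± 0.19, adjusted p 0.0444, edgeR). The medians were 0.26 and 0.05, beside 1.96 for the 9 genes. In auxin-treated parental cells, which hold the smallest library, means of DNAJC1, DNAJC7 and DNAJB1 went the other way. They stood at 8.82, 144 and 308 CPM with stress and 11.4, 178 and 237 CPM without. In tagged cells DNAJC1 stood at 10.1 CPM with stress and 7.18 CPM without, and with auxin at 9.51 and 13.6 CPM. Means of SEC63 and DNAJB5 kept their direction throughout, and those of DNAJC7 and DNAJB1 in tagged cells. Of 11 tested Hsp70 partners, paralogs and cytosolic exchange factors 3 rose and 2 fell. HSPA5 stood at 4353 ± 273 CPM with stress and 787 ± 90.2 CPM without (SD, n = 4 each; 2.47 ± 0.11), HSP90B1, the ER Hsp90, changed by 2.44 ± 0.43 and HSPA13 by 0.98 ± 0.17. The lower ones, named after their values were seen, were BAG1 (-0.47 ± 0.11) and HSPH1 (-0.29 ± 0.08), both cytosolic exchange factors. Means of HSPA5, HSP90B1, HSPA13, BAG1 and HSPH1 kept their direction throughout. HSP90B1 differed least in auxin-treated parental cells, at 649 CPM with stress and 436 CPM without. SDF2, the paralog of SDF2L1, stood at 33.6 ± 3.65 CPM with stress and 27.1 ± 6.44 CPM without (0.30 ± 0.23, adjusted p 0.396, edgeR). Elsewhere its means were lower with stress, at 26.5 against 48.0 CPM in auxin-treated parental cells. In tagged cells they were 24.3 against 35.2 CPM with vehicle and 39.6 against 49.7 CPM with auxin. CDNF, the paralog of MANF, averaged 1.15 CPM with stress and 0.328 CPM without and was too low to test. Whether the 9 genes differ from these lists was not tested.

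**Figure D5:**
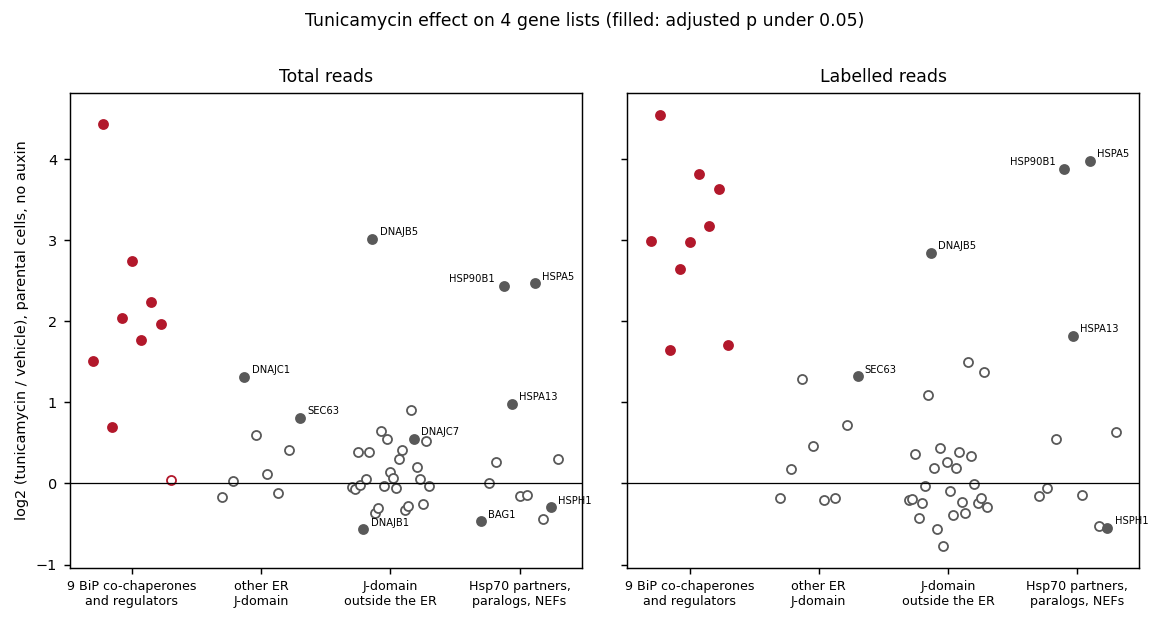
Log2 change of tunicamycin over vehicle in vehicle-treated parental cells (vertical) for the 9 genes and 3 lists of related genes (horizontal), in total and labelled reads. Each point is a gene, filled where the edgeR adjusted p was under 0.05, and called genes outside the 9 are named. Medians of total reads are 1.96 for the 9 genes, 0.26 for other ER J-domain proteins, 0.05 for J-domain proteins outside the ER and 0.01 for Hsp70 partners and exchange factors.

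In labelled reads the same stress comparison gave 1 of 8 other ER J-domain proteins higher, 1 of 26 tested J-domain proteins outside the ER higher, and 3 higher and 1 lower of 10 tested partners. These counts keep genes that, like SIL1, were tested only because of their stressed libraries. Among them were DNAJB5, at 19.8 labelled CPM with stress and 2.52 without, and DNAJC6, at 22.0 and 7.17. HSPA5 changed by 3.98 ± 0.12 in labelled reads, and its labelled share was 25.9% ± 0.292 with stress against 10.9% ± 0.359 without (SD, n = 4 each; 1.85 ± 0.08).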

How the data were processed

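SLAM-seq libraries from 32 wells of HCT116 cells, 4 per group, were read as single 3′ reads on a NovaSeq. The deposited tables give, per the file headers, raw counts of reads, labelled reads, covered T positions and conversions in 95582 transcript regions, counted with Slamdunk. The build is hg38 per the submitters' processing notes, and the Slamdunk version, conversion threshold and use of strand are not given in the sources used here. The deposited CPM, per 1 M reads of a file, and the deposited conversion fraction, conversions divided by covered T positions, were not used, their like being computed anew from the counts, and the region length and T content were taken as deposited.

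Of the transcripts 46332 matched a RefSeq gene name, giving 18829 genes, and reads of unmatched transcripts (36.9% to 43.5% per library) were left out. A read over a region shared by transcripts counts for each. Of genes with identical counts 72 were dropped. The 9 genes and all lists were chosen with earlier results of these data known. Counts were tested with edgeR 4.0.16 (quasi-likelihood F-test, TMM, filterByExpr at 10 reads, 1 coefficient per group over 32 libraries), over 11186 genes for total and 8980 for labelled reads and shares, with Benjamini-Hochberg adjustment at 0.05 in each contrast. Shares used 2 columns per library (labelled and other reads) and a library term. SD, SE and intervals (95%) cover the spread between wells. Genes named were the 9 members, the lists of related genes, and the 3 genes most like each member over the 8 group means, those of SDF2L1 not being reported here. Alternatives were DESeq2 1.42.0, limma 3.58.1 (pseudocount 0.5), other scalings, filters and transcript choice, a replicate block, the within-group axis, the compared groups alone, and each library left out. The tests recovered changed genes in counts simulated for stress in vehicle-treated parental cells. The simulation held no within-group axis and no library of unlike composition, so it does not probe their effect on the calls. Any replicate pair differed by more than sampling noise (chi-square divided by its degrees of freedom, 2.10 to 70.0), so none was deposited more than once.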

Additional observations from a re-analysis of the deposited data

Results flagged for a closer look

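Values of the 9 genes were examined in 216 groups of 4 libraries, and 22 had a highest or lowest library far from the other 3 (Dixon's 95% criterion). Chance alone flags about 1 in 20 such groups. Of the 22, 10 were in the smallest library, replicate 1 of stressed, auxin-treated parental cells.

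In that library total reads were 179.2 CPM for DNAJB11 (437.7 to 465.6 in the other 3), 301.3 CPM for SIL1 (41.07 to 56.02), 3890 CPM for SDF2L1 (887.9 to 1017) and 130.9 CPM for FICD (32.45 to 44.72). Labelled reads were 80.13 CPM for SIL1 (16.15 to 26.82), 5502 CPM for SDF2L1 (1451 to 1652) and 333.9 CPM for FICD (133.8 to 156.1). The labelled share was 25.23% for DNAJC3 (32.96% to 33.89%), 3.158% for DNAJC10 (15.35% to 16.28%) and 41.43% for HYOU1 (23.56% to 25.76%). The DNAJC10 share rests on 3 labelled reads of 95. Reads of this library covered 15.08 T positions on average, against 20.33 to 24.09 in all others, and shares depend on that number.

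In unstressed, auxin-treated tagged cells, DNAJC10 held 100.9 CPM in replicate 3 (76.3 to 80.14 in the others), MANF 118.7 labelled CPM in replicate 4 (144.8 to 148.8), and DNAJB9 a labelled share of 88.57% in replicate 1 (72.41% to 74.14%). In unstressed, vehicle-treated parental cells, DNAJB9 held 46.82 labelled CPM in replicate 3 (15.73 to 20.48) and a share of 64.29% in replicate 1 (76.92% to 79.41%), and HYOU1 106.9 labelled CPM in replicate 1 (74.16 to 78.03). In stressed, auxin-treated tagged cells, DNAJC3 held 502.8 labelled CPM in replicate 4 (655.7 to 676.8), SDF2L1 1314 labelled CPM in replicate 3 (1445 to 1471), DNAJB9 a share of 66.46% in replicate 3 (71.87% to 72.7%) and HYOU1 a share of 26.22% in replicate 2 (27.7% to 27.83%). In stressed, vehicle-treated parental cells the HYOU1 share was 27.64% in replicate 2 (24.89% to 25.34%) and the FICD share 31.53% in replicate 1 (42.19% to 43.69%).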

How the results depend on the processing

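Counts of the 9 genes called stayed within 1.5 times the reported count in 748 recomputations and moved beyond it in 39, and no gene's called direction reversed. The 748 include counts of 0 that stayed at 0, which say nothing about how stable a call is. The exceptions follow, and the cause was not tested. Several of these settings also called many more of all genes, as given below, so these counts alone do not set the 9 genes apart. The compared groups alone gave 4 stress calls in auxin-treated parental cells (total reads; 9 reported). Conversion rates gave 4 calls for the share in vehicle-treated parental cells (7 with SIL1 counted). For auxin in unstressed tagged cells (0 reported), total reads gave 1 call with DESeq2, 4 with the compared groups, 4 with the axis and 0 to 5 with a library left out, and labelled reads gave 1 with the compared groups, 1 with no filter and 1 with the axis. For auxin in stressed tagged cells (0 reported), total reads gave 3 with the compared groups, 3 with the axis and 0 to 1 with a library left out, and labelled reads gave 2, 1 and 2 with the compared groups, no filter and the axis. For auxin in unstressed parental cells (1 reported in total, 0 in labelled reads), total reads gave 0 with no filter, 3 with the axis and 0 to 2 with a library left out, and labelled reads 1 with the axis. For auxin in stressed parental cells (0 reported), labelled reads gave 1 with no filter and total reads 0 to 3 with a library left out. The stressed tagged minus parental auxin difference (0 reported) gave 3 with the axis and 0 to 3 with a library left out in total reads, and 2 with no filter and 1 with the axis in labelled reads. Between stressed lines (0 reported) the axis gave 3 calls in total and 2 in labelled reads, and the compared groups 1 in shares. Over all genes the axis fit called 1286 there in total and 134 in labelled reads, against 46 and 9 reported. Between unstressed lines the axis gave 1 call in total reads, and for the line difference in stress effect 1 in total and 1 in labelled reads. Over all genes the axis fit called 516 between unstressed lines in total reads, against 27 reported. For the line difference in stress effect it called 840 in total and 58 in labelled reads, against 0 reported in each.

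Over all genes, stress calls in total reads moved with the setting or the library left out: 710 to 3964 against 1444 in vehicle-treated parental cells, 119 to 1921 against 1169 in auxin-treated parental cells, 350 to 961 against 451 in vehicle-treated tagged cells and 339 to 1091 against 464 in auxin-treated tagged cells. Auxin calls ran from 2 to 2503 against 76 in unstressed tagged, 0 to 1601 against 2 in stressed tagged, 47 to 3237 against 805 in unstressed parental and 0 to 828 against 2 in stressed parental cells. The stressed tagged minus parental auxin difference reached 1061 calls in total reads with a library left out, against 0. In labelled reads it reached 101 with no filter, against 0. Labelled-read auxin calls with the axis were 303 against 21 in unstressed tagged, 176 against 0 in stressed tagged and 509 against 54 in unstressed parental cells. With no filter they were 28 against 1 in stressed parental cells. In labelled reads stress called 1073 to 2365 genes against 1541 and 485 to 1711 against 1020 in vehicle- and auxin-treated parental cells. In labelled share stress called 270 to 1988 against 734 and 409 to 1536 against 726 in the same cells, and 323 to 991 against 635 and 309 to 1113 against 641 in vehicle- and auxin-treated tagged cells.

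Same-numbered replicates did not deviate together (mean r 0.0522 over 112 pairs, against -0.0183 for other numbers; 50 pairs over 0.1; 12 of 32 libraries were closest to their own number), so the numbers were not taken as pairs. With a replicate block the counts of stress calls in total reads were 8, 9, 8 and 8, and the block changed 0 of 378 calls of the 9 genes. Depth limits FICD, SIL1 and unstressed DNAJB9 most.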

Other observations

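The 9 genes differed in how much they varied between wells of the same group. Within groups the SD of log2 CPM was 0.575 for DNAJB9, above that of 93.6% of genes of like level, 0.502 for MANF (95.4%) and 0.501 for SIL1 (92.0%). SDF2L1 had an SD of 0.420 (89.8%), FICD 0.447 (74.9%), HYOU1 0.325 (80.3%) and DNAJB11 0.259 (67.1%). DNAJC3 (0.171, 28.2%) and DNAJC10 (0.116, 4.77%) lay in the lower range. These values include the smallest library and are a description.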
